A study of Mus musculus with 12 samples.

Results

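The BCL2 family decides whether a cell releases cytochrome c from its mitochondria and dies by intrinsic apoptosis. Effector proteins (BAX, BAK) open the outer mitochondrial membrane, prosurvival proteins (BCL2, BCL-XL, MCL1, A1) hold them back, and BH3-only proteins bind the prosurvival proteins or the effectors and so promote opening. Much of the control lies in protein stability, cleavage and location, which transcript levels do not show. Here 10 members were taken by symbol from the 55281 genes of the count table. They comprise the 4 prosurvival genes Bcl2, Bcl2l1, Mcl1 and Bcl2a1b, the 2 effector genes Bax and Bak1, and the 4 BH3-only genes Bcl2l11, Bid, Bbc3 and Pmaip1. All 10 passed the filter on low counts, and their levels are described in gonadal white adipose tissue (GWAT).

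The tissue came from male mice carrying loxP-flanked Hoip alleles (Hoip fl/fl). HoipA-KO mice also carried AdipoQ.Cre, in which the adiponectin promoter drives Cre in mature adipocytes, and WT mice were Cre-negative littermates with the same floxed alleles. HOIP, encoded by Rnf31, is the catalytic subunit of the linear ubiquitin chain assembly complex, which restrains cell death downstream of TNF receptors. Mice received a control diet (CD, 14% fat in the labels) or a high-fat diet (HFD, 60% fat) for 16 weeks from 6 weeks of age. The age of the mice was 22 to 24 weeks in all groups. Each of the 4 groups had 3 libraries, and each library held GWAT pooled from 3 mice, so n counts pools. Between 30513500 and 60540260 reads per library were assigned to genes. Levels are given as CPM, reads per gene relative to the size of the library, with TMM normalization over the 12 libraries, and 3 counts in a library correspond to at most 0.0965 CPM.

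The deleted gene was read in every library. Rnf31 stood at 20.1, 21.8 and 12.9 CPM in WT CD, at 17.9, 17.9 and 19.9 CPM in WT HFD, at 18.03, 17.6 and 21.8 CPM in HoipA-KO CD, and at 20.0, 18.8 and 22.1 CPM in HoipA-KO HFD. The groups overlapped, with a log2 fold change of -0.08 ± 0.14 (SE) on CD and 0.13 ± 0.12 on HFD (adjusted p = 0.654 and 0.491). Only adipocytes carry the deletion, the other cells of the tissue keep the gene, and a count over the whole gene includes exons outside the deleted part, so this level does not check the genotype labels.

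Some libraries carried transcripts of neighbouring organs. Protamine 2 (Prm2), made by haploid germ cells of the testis, reached 3150 CPM in WT CD replicate 3 and 166 CPM in WT CD replicate 2, against 5.51 CPM in WT CD replicate 1 and at most 1.70 CPM in the other 9 libraries. Crisp1, a product of epididymal epithelium, reached 12989 CPM in WT CD replicate 2 and 1303 CPM in HoipA-KO HFD replicate 1. Epididymal markers summed to 95.8 CPM in HoipA-KO HFD replicate 3 and to 79.1 CPM in HoipA-KO CD replicate 3, against at most 7.94 CPM in the other 8 libraries. WT CD replicate 3 is absent from the headers of the authors' comparison tables. Fold changes are therefore given over the other 11 libraries, and it is said where a call in HoipA-KO against WT was lost over all 12.

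Cell type markers differed between the groups as well. The adipocyte marker Adipoq was detected in every library, from 1269 to 3436 CPM in WT and from 203 to 497 CPM in HoipA-KO. Of 10 adipocyte markers, 9 fell in HoipA-KO on CD and 10 on HFD (8 and 7 over 12 libraries). Of 9 macrophage markers, all 9 rose on CD and 4 on HFD (0 on HFD over 12 libraries), and in WT mice 9 rose with HFD. Lyz2, the most abundant of them, stood between 190 and 292 CPM in WT CD, 896 and 2636 CPM in WT HFD, and 3056 and 7456 CPM in HoipA-KO. In bulk tissue, fewer cells of a type and less RNA per cell cannot be told apart, and the part of these shifts in the family's levels was not tested.

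On CD, members of all 3 roles rose in HoipA-KO tissue, and Bcl2 fell over 11 libraries. Over 11 libraries, 7 of the 10 members rose and 1 fell in edgeR's quasi-likelihood test, with p-values adjusted by Benjamini-Hochberg over 18427 genes. Of all genes tested, 18.9% rose and 18.8% fell. The rising members were 3 of the 4 prosurvival genes, both effectors and 2 of the 4 BH3-only genes, and Bid and Bbc3 did not pass. Over all 12 libraries 6 members rose and 0 fell, against 15.6% and 19.1% of 18074 genes. Bcl2 and Bcl2l1 lost their call with WT CD replicate 3 included, and Bid and Bbc3 again did not pass. The median log2 fold change of the 10 members was 1.34 over 11 libraries, and that of all genes tested was -0.06.

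On HFD, 3 members passed. Of the 10 members, Bcl2a1b and Bax rose and Bcl2 fell, against 4.2% of all genes higher and 7.62% lower. Over all 12 libraries 1 member rose (Bcl2a1b) and 0 fell, against 0.531% and 2.25% of genes. With library size in place of TMM, 53.03% of the 2412 genes called on HFD were higher, against 35.5% of the 2179 called with TMM. The median of the members was 0.52 on the log2 scale, beside 0.06 for all genes tested.

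**Figure D1:**
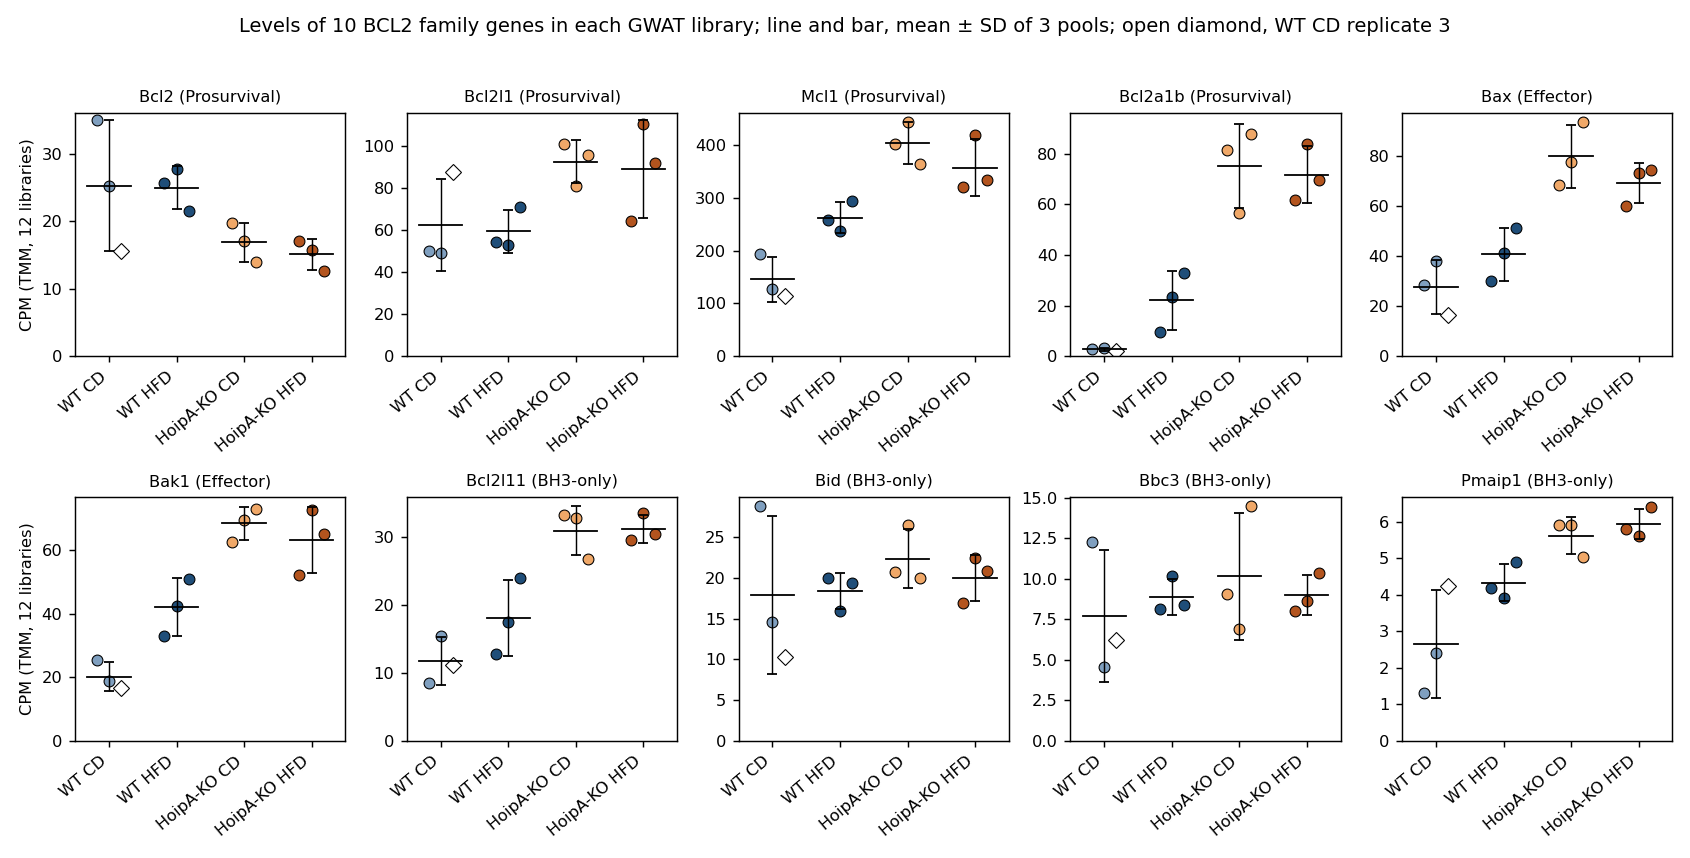
Level of each of the 10 genes in CPM (vertical axis, linear, from 0) in the 3 pools of each group, with the mean and SD. The open diamond is WT CD replicate 3. Mcl1, Bcl2a1b, Bax, Bak1, Bcl2l11 and Pmaip1 lie higher in every HoipA-KO pool than in every WT pool on the same diet.

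Counting groups that did not overlap over all 12 libraries, 6 members were higher in every HoipA-KO pool than in every WT pool on CD, and the same 6 on HFD. Among all genes this held for 20.3% on CD and 21.4% on HFD. In the other direction, no member on CD and 1 on HFD (Bcl2) lay lower in every HoipA-KO pool, against 19.7% and 23.3% of all genes.

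Among the prosurvival genes, Bcl2a1b differed most between the groups. It encodes A1, a prosurvival protein best known from myeloid and lymphoid cells. The gene lies at chr9:89199209-89207827 on the plus strand (GRCm38) and belongs to a set of near-identical copies on chromosome 9, with Bcl2a1a at chr9:88956900-88962419 (plus strand) and Bcl2a1d at chr9:88723285-88731914 (minus strand). The coding regions of these 3 copies have 516 bases each. The copies are shown because the counts of Bcl2a1b depend on how reads were divided among them. The coding bases 1 to 60 (annotated transcripts, GENCODE on GRCm38) are printed with the 6 positions that vary among the 3 copies in capitals.

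Bcl2a1a: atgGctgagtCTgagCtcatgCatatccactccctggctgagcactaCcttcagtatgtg
Bcl2a1b: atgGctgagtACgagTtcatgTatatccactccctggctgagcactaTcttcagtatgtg
Bcl2a1d: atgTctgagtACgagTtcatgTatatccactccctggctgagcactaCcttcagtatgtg

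Over the whole coding region Bcl2a1b differs from Bcl2a1a at 11 bases (97.87% identity) and from Bcl2a1d at 6 (98.84%), and Bcl2a1a differs from Bcl2a1d at 7 (98.64%). All 12 variable positions leave a stretch of 217 bases, coding bases 95 to 311, that the 3 copies share, so reads inside it cannot be assigned to 1 copy by sequence. The fractional counts that Salmon estimated for these 3 copies in every library show that reads were shared out among them.

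Bcl2a1b stood at 2.84, 3.31 and 1.89 CPM in WT CD and at 9.71, 23.4 and 33.1 CPM in WT HFD. It stood at 81.3, 56.5 and 87.8 CPM in HoipA-KO CD and at 61.5, 83.9 and 69.7 CPM in HoipA-KO HFD. The 3 WT CD pools lay below every other library, the WT HFD pools were spread between, and the HoipA-KO pools on both diets overlapped at the top. The rise in HoipA-KO was 4.66 ± 0.50 (log2, SE) on CD (25.2-fold, adjusted p = 0.000452) and 1.71 ± 0.36 on HFD (3.27-fold, adjusted p = 0.0222). Leaving out WT HFD replicate 2 or HoipA-KO HFD replicate 2 or 3 ended the call on HFD, with an adjusted p of up to 0.0786. In WT, HFD raised Bcl2a1b by 2.88 ± 0.45 on the log2 scale (adjusted p = 0.00663).

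The share of reads estimated for Bcl2a1b among the copies moved with the group too. Bcl2a1b took between 57.6% and 65.6% of the copies' counts in WT CD, 61.7% to 82.6% in WT HFD, and 81.7% to 87.8% in HoipA-KO. Bcl2a1a rose by 2.77 on CD and 2.10 on HFD (log2, adjusted p = 0.00059 and 0.00871). Bcl2a1d rose by 2.705 on CD (adjusted p = 0.000577) and had a log2 fold change of 0.56 on HFD (adjusted p = 0.181). Bcl2a1c, at 3 counts or fewer in every library, was not tested. With the counts of the 4 copies summed to 1 gene, the rise stayed past the threshold on both diets.

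**Figure D2:**
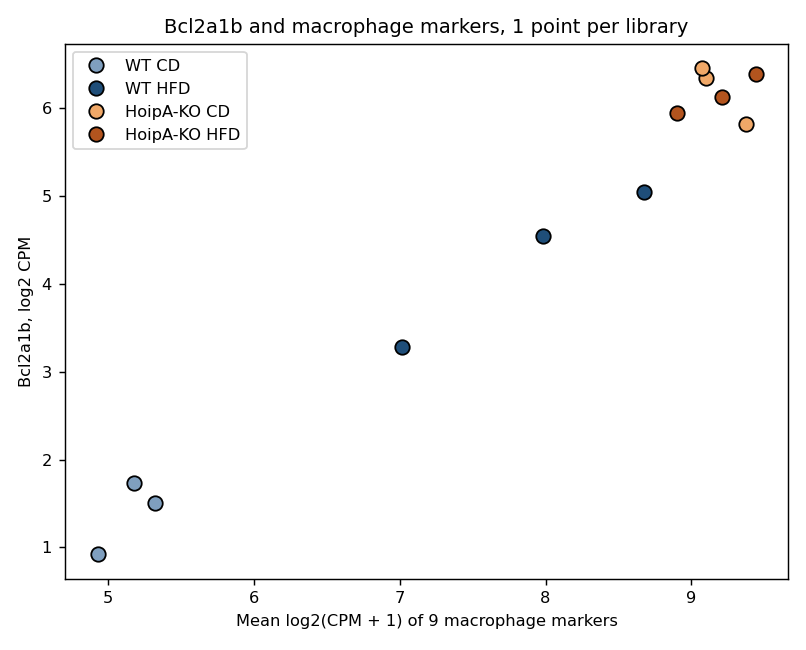
Bcl2a1b in log2 CPM (vertical) against the mean log2(CPM + 1) of 9 macrophage markers (horizontal), 1 point per library. WT CD libraries lie at the lower left, at marker means of 4.93 to 5.33, WT HFD libraries between 7.01 and 8.67, and HoipA-KO libraries between 8.90 and 9.44.

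Bcl2a1b and the macrophage markers both rose from WT CD to WT HFD to HoipA-KO, but not in step within every group. The pools had the same order for both in WT HFD and HoipA-KO HFD, but not in either CD group. In HoipA-KO CD, replicate 2 had the highest marker mean (9.38) and the lowest Bcl2a1b (5.82 in log2 CPM). The log2 CPM of Bcl2a1b minus the markers' mean was -4.01 to -3.43 in the 6 WT libraries. In HoipA-KO the difference was -3.56 to -2.62, and only HoipA-KO CD replicate 2 fell within the WT range. The neutrophil marker Ly6g was at most 0.0555 CPM in any library, which is 3 counts or fewer, and S100a8 reached at most 38.6 CPM. Another marker of that list, Csf3r, moved with Bcl2a1b, from 1.21 to 1.65 CPM in WT CD, 4.70 to 6.04 CPM in WT HFD and 8.17 to 12.4 CPM in HoipA-KO, and was the 1 of 5 tested neutrophil markers that rose on each diet. The mast cell marker Tpsb2 stood at 1.23 to 2.34 CPM in WT CD, 3.06 to 48.8 CPM in WT HFD and 88.03 to 243 CPM in HoipA-KO, and 4 of 5 mast cell markers rose on CD. The part of these cell types in the level of Bcl2a1b was not tested.

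Mcl1 (chr3:95658788-95663176, GRCm38) encodes a short-lived prosurvival protein and had the highest mean per kilobase of exon of the 10 members in every group. It stood at 194, 128 and 115 CPM in WT CD and at 257, 237 and 294 CPM in WT HFD. It stood at 401, 444 and 365 CPM in HoipA-KO CD and at 320, 418 and 334 CPM in HoipA-KO HFD. Every WT CD pool was below every WT HFD pool, and every WT HFD pool below every HoipA-KO pool. The rise on CD was 1.36 ± 0.24 (log2, SE; 2.57-fold, adjusted p = 0.00256). On HFD the log2 fold change was 0.45, with a 95% interval of -0.02 to 0.91 (adjusted p = 0.173). In WT, HFD against CD gave 0.73 ± 0.24 over 11 libraries (adjusted p = 0.0642) and 0.87 over 12 (adjusted p = 0.0329). It also passed over 11 libraries with library size alone, with DESeq2's Wald test and with at least 10 counts required in every library, and without WT CD replicate 1 the value was 1.13 (adjusted p = 0.00832). Without WT CD replicate 2 it was 0.43 (adjusted p = 0.316).

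Bcl2 (chr1:106538178-106714274), the prosurvival gene that names the family, was the member with a lower level. It stood at 35.0, 25.3 and 15.6 CPM in WT CD and at 25.8, 27.8 and 21.5 CPM in WT HFD. It stood at 19.7, 17.0 and 13.9 CPM in HoipA-KO CD and at 17.0, 15.8 and 12.6 CPM in HoipA-KO HFD. The groups were apart on HFD, but on CD WT replicate 3 lay among the HoipA-KO pools. On the log2 scale and over 11 libraries, Bcl2 fell by 0.80 ± 0.22 in mice on CD (adjusted p = 0.0182) and by 0.73 ± 0.20 in mice on HFD (adjusted p = 0.0447). Over 12 libraries neither passed (log2 fold changes of -0.58 and -0.74, adjusted p = 0.134 and 0.169). Without WT CD replicate 1 the value on CD was -0.50 (adjusted p = 0.1247), and with WT CD replicates 2 and 3 as the WT CD group it was -0.21 (adjusted p = 0.53). The call on CD was also lost with replicates 1 and 3 as that group (adjusted p = 0.178) and with only the CD libraries in the fit (adjusted p = 0.0677). On HFD the call was lost without WT HFD replicate 1 or 2, replicate 1 or 2 of HoipA-KO CD, or replicate 2 or 3 of HoipA-KO HFD (adjusted p up to 0.143).

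Bcl2l1 (chr2:152780668-152831728) encodes the prosurvival protein BCL-XL and, by splicing, a shorter proapoptotic form, and the counts per gene do not separate the forms. It stood at 50.1, 48.9 and 87.4 CPM in WT CD, and HoipA-KO CD pools stood at 101, 80.9 and 95.4 CPM. On HFD the pools stood at 54.5, 52.7 and 71.0 CPM in WT and at 64.4, 111 and 91.8 CPM in HoipA-KO. WT CD replicate 3 again lay within the HoipA-KO range, and on HFD the groups overlapped. Over 11 libraries Bcl2l1 rose by 0.94 ± 0.23 on CD (log2, SE; adjusted p = 0.0121), with 0.58 over 12 libraries (adjusted p = 0.108) and 0.83 without WT CD replicate 2 (adjusted p = 0.058). On HFD the log2 fold change was 0.59 (95% interval 0.13 to 1.04, adjusted p = 0.0858). That value passed with library size alone, with DESeq2's Wald test and without HoipA-KO HFD replicate 1.

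The make-up of the prosurvival transcripts was compared per length, as CPM per kilobase of merged exons (GENCODE annotation on GRCm38), adding Bcl2l2, which encodes the prosurvival protein BCL-W. Mcl1 made up 52.3% ± 5.20 (SD, n = 3) of the sum in WT on CD, 53.4% ± 4.23 in WT on HFD, 46.2% ± 6.63 in HoipA-KO on CD and 43.8% ± 1.47 in HoipA-KO on HFD. The Bcl2a1 copies made up 6.58% ± 1.41 in WT on CD, 23.1% ± 7.59 in WT on HFD, 41.3% ± 6.35 in HoipA-KO on CD and 43.0% ± 1.502 in HoipA-KO on HFD. Their share was lower in every WT pool than in every HoipA-KO pool. Bcl2l2 made up 20.1% ± 3.61 in WT CD and 3.95% ± 0.0792 in HoipA-KO CD, and Bcl2 3.36% ± 0.790 and 0.720% ± 0.123. These shares are descriptions, because they follow from the levels tested singly.

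**Figure D3:**
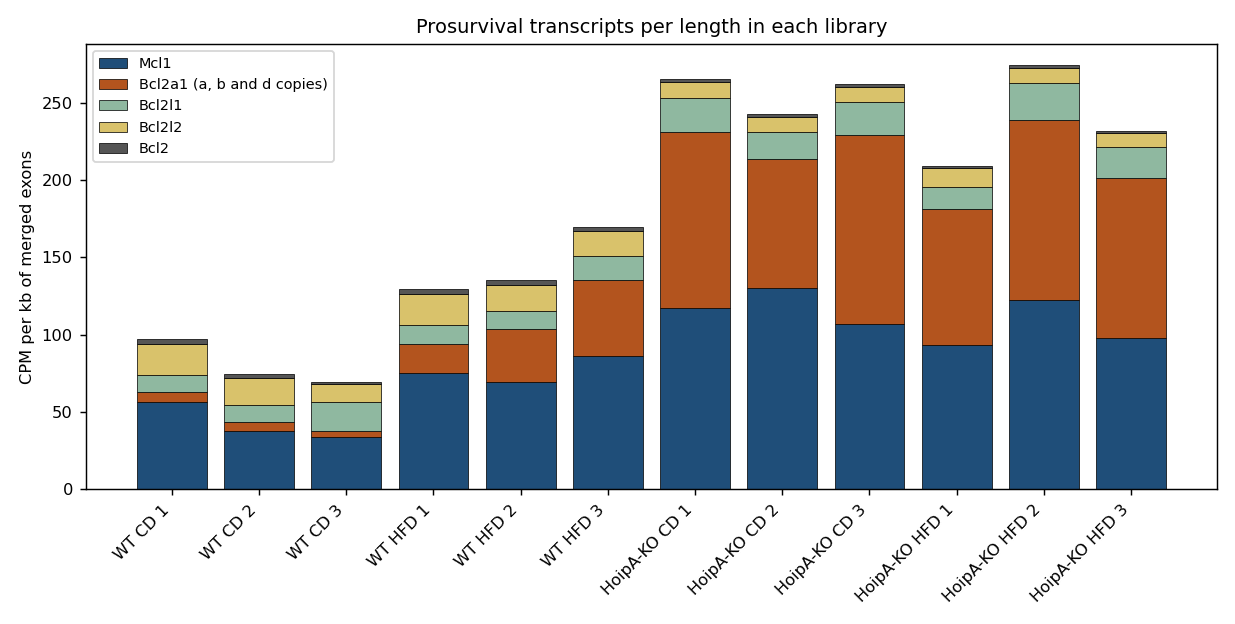
Prosurvival transcripts in CPM per kilobase of merged exons (vertical axis, from 0), stacked for each of the 12 libraries. The totals run from 69.5 to 97.5 in WT CD, from 129 to 169 in WT HFD and from 209 to 274 in HoipA-KO, with Mcl1 and the Bcl2a1 copies as the main parts in HoipA-KO.

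Both effectors rose in HoipA-KO on CD, and on HFD Bax passed over 11 libraries and neither passed over 12. Bax (chr7:45461697-45466898), whose product moves to mitochondria when activated, stood at 28.6, 38.0 and 16.5 CPM in WT CD and at 68.4, 77.4 and 93.2 CPM in HoipA-KO CD. On HFD it stood at 29.9, 41.1 and 51.0 CPM in WT and at 60.0, 72.9 and 74.3 CPM in HoipA-KO. No WT pool reached a HoipA-KO pool on either diet. Bax rose by 1.31 ± 0.24 on CD (log2, SE; 2.48-fold, adjusted p = 0.0028) and by 0.77 ± 0.20 on HFD (1.71-fold, adjusted p = 0.0413). The call on HFD was lost over 12 libraries (adjusted p = 0.165) and without WT HFD replicate 1 or 2, any HoipA-KO CD replicate, or replicate 2 or 3 of HoipA-KO HFD (adjusted p up to 0.139). HFD against CD in WT gave 0.33 for Bax (adjusted p = 0.355). That value ran from 0.04 to 0.50 when 1 library was left out, and from 0.20 to 0.86 under the other alternatives.

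Bak1 (chr17:27019810-27029009), whose product sits in the outer mitochondrial membrane before activation, stood at 25.4, 18.7 and 16.5 CPM in WT CD and at 32.9, 42.5 and 51.0 CPM in WT HFD. HoipA-KO pools stood at 62.5, 69.6 and 72.9 CPM on CD and at 52.1, 72.5 and 65.1 CPM on HFD. The WT CD, WT HFD and HoipA-KO pools formed an order with no overlap between them. Bak1 rose by 1.68 ± 0.24 on CD (3.19-fold, adjusted p = 0.000959), and on HFD the log2 fold change was 0.59 (95% interval 0.14 to 1.05, adjusted p = 0.0837). The value on HFD passed with library size alone, with DESeq2's Wald test, and without WT HFD replicate 3 or HoipA-KO HFD replicate 1. HFD raised Bak1 in WT by 0.97 ± 0.23 (adjusted p = 0.0257), a call lost with only the WT libraries in the fit (adjusted p = 0.114) and without WT CD replicate 2, WT HFD replicate 2 or WT HFD replicate 3 (adjusted p up to 0.149). With a replicate block the call of Bak1 in WT was lost as well. Within a library, the log2 ratio of Bax to Bak1 was 0.40 ± 0.55 in WT on CD, -0.06 ± 0.07 in WT on HFD, 0.21 ± 0.12 in HoipA-KO on CD and 0.13 ± 0.11 in HoipA-KO on HFD (SD, n = 3).

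The ratio of Bax to Bcl2 combined a member that rose and one that fell over 11 libraries. Over 12 libraries Bcl2 was not called on either diet, nor Bax on HFD. The ratio is a description, because it follows from the levels tested singly. Its log2 value was between -0.29 and 0.59 in WT on CD, 0.21 and 1.24 in WT on HFD, 1.79 and 2.74 in HoipA-KO on CD, and 1.82 and 2.56 in HoipA-KO on HFD. The HoipA-KO pools lay above all 6 WT pools. The log2 ratio of Bcl2l11 to Mcl1, a proapoptotic gene against its prosurvival partner, averaged -3.64 ± 0.76 in WT on CD, -3.90 ± 0.38 in WT on HFD, -3.70 ± 0.10 in HoipA-KO on CD and -3.51 ± 0.11 in HoipA-KO on HFD (SD, n = 3). The pools of the genotypes overlapped in this ratio on both diets, and on CD both genes were higher in HoipA-KO.

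Of the BH3-only genes, Bcl2l11 and Pmaip1 were called higher in HoipA-KO on CD, and Bid and Bbc3 were not called. A difference between these genes was not tested. Bcl2l11 (chr2:128126038-128162547) encodes BIM, which binds every prosurvival member and is controlled by FOXO transcription factors in many cells. It stood at 8.58, 15.5 and 11.2 CPM in WT CD and at 12.8, 17.5 and 24.0 CPM in WT HFD. HoipA-KO pools stood at 33.3, 32.8 and 26.9 CPM on CD and at 29.6, 33.6 and 30.4 CPM on HFD. All 6 HoipA-KO pools lay above all 6 WT pools. Bcl2l11 rose by 1.43 ± 0.29 on CD (log2 with SE, 2.69-fold, adjusted p = 0.0047), and on HFD the log2 fold change was 0.79 (95% interval 0.24 to 1.34, adjusted p = 0.065). The value on HFD passed with DESeq2's Wald test (adjusted p = 0.0164). Among fits that kept more than 1 library in every group, it also passed without WT HFD replicate 3. With 1 library left out it ran from 0.60 to 1.05.

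Pmaip1 encodes NOXA, which binds MCL1 and A1 in particular. It stood at 1.30, 2.39 and 4.23 CPM in WT CD and at 4.18, 3.91 and 4.89 CPM in WT HFD. HoipA-KO pools stood at 5.90, 5.91 and 5.02 CPM on CD and at 5.81, 5.60 and 6.40 CPM on HFD. It was the member with the lowest mean per kilobase in WT CD, and on CD the HoipA-KO pools lay above WT. Pmaip1 rose by 1.66 ± 0.28 on CD (3.17-fold, adjusted p = 0.00191), or by 1.10 over 12 libraries (adjusted p = 0.0413). With WT CD replicates 2 and 3 or 1 and 3 as the WT CD group it did not pass (adjusted p up to 0.0799). HFD raised it in WT by 1.28 ± 0.28 over 11 libraries (adjusted p = 0.0169), and over 12 libraries the log2 fold change was 0.75 (adjusted p = 0.177). Without WT HFD replicate 3 that call was lost too (adjusted p = 0.0875).

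Bid (chr6:120891930-120916853), the substrate through which caspase-8 links death receptors to mitochondria, ranged from 10.3 to 28.8 CPM in WT CD and from 19.9 to 26.5 CPM in HoipA-KO CD. Its log2 fold change on CD was 0.08 (95% interval -0.58 to 0.74, adjusted p = 0.85), and on HFD 0.12 (-0.47 to 0.71, adjusted p = 0.771). The value of Bid on HFD ran from 0.02 to 0.25 when 1 library was left out. Bbc3 (chr7:16308393-16318205), which encodes the p53 target PUMA, ranged from 4.56 to 12.3 CPM in WT CD and from 6.91 to 14.5 CPM in HoipA-KO CD. Its log2 fold change was 0.29 on CD (-0.65 to 1.22, adjusted p = 0.613) and 0.02 on HFD (-0.81 to 0.85, adjusted p = 0.976). WT CD replicate 1 had the highest WT CD value of both genes. Without it the log2 fold changes on CD were 0.70 for Bid and 1.23 for Bbc3, and without WT CD replicate 2 they were -0.36 and -0.28. Each of these fits leaves 1 WT CD library. The one left without replicate 1 is replicate 2, which carried epididymal transcripts.

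**Figure D4:**
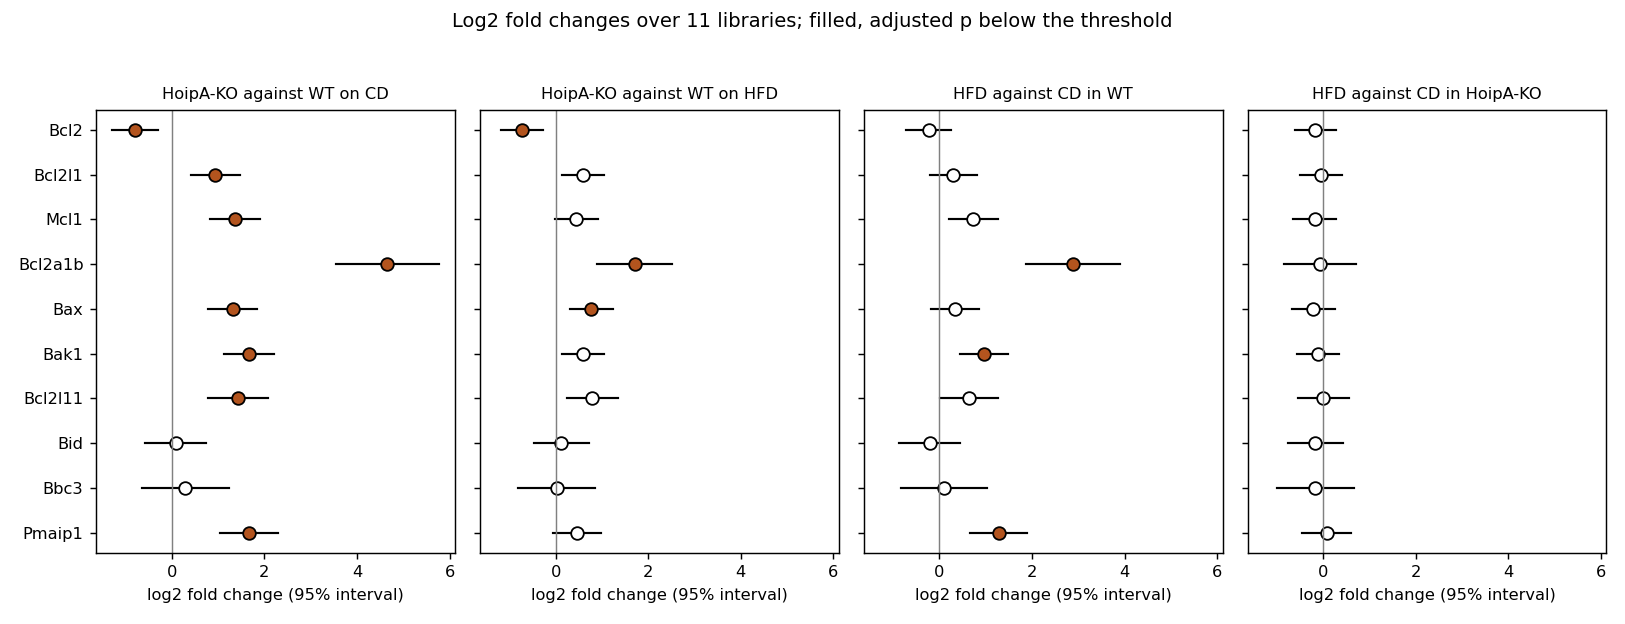
Log2 fold change (horizontal) with its 95% interval for the 10 genes in 4 comparisons over 11 libraries, filled where the adjusted p passed 0.05. Called members number 8 for HoipA-KO against WT on CD, 3 on HFD, 3 for HFD against CD in WT and 0 in HoipA-KO.

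The diet comparison asks whether HFD alone moves the family. In WT, 3 members rose (Bcl2a1b, Bak1 and Pmaip1) and 0 fell, against 9.35% of all genes higher and 5.47% lower. Over 12 libraries 3 rose (Mcl1, Bcl2a1b and Bak1) and 0 fell, against 9.05% and 5.97%. When the WT libraries alone entered the fit, edgeR called 0 members and 0% of 17200 genes, with 4 members and 4666 genes at an unadjusted p under 0.05. Of the genes called in WT, 63.1% were higher with TMM and 75.7% with library size in its place. In HoipA-KO, edgeR called 0 of the 10 members and 0% of 18427 genes, and the members' log2 fold changes lay between -0.21 and 0.07. At an unadjusted p under 0.05 there were 415 genes and 0 members, and DESeq2's Wald test called 7 genes and 0 members.

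Whether the genotype difference changed with diet was tested as an interaction. Bcl2a1b passed, with a genotype difference smaller on HFD by 2.95 ± 0.56 on the log2 scale (interaction -2.95, adjusted p = 0.0284), against 3.91% of all genes called. Over 12 libraries it was -3.13 (adjusted p = 0.0168), against 2.78% of genes. The call was lost when 1 of 8 libraries was left out (all but WT CD replicate 1, WT HFD replicate 1 and HoipA-KO HFD replicate 2), with an adjusted p of up to 0.0929, and with a replicate block (adjusted p = 0.0532). Mcl1, Bak1 and Pmaip1 had interaction values of -0.92, -1.08 and -1.20 over 11 libraries without passing (adjusted p = 0.127, 0.0839 and 0.0917). The other 6 members lay between -0.64 and 0.07. Over 12 libraries Mcl1, Bak1 and Pmaip1 had values of -1.04, -1.19 and -0.66 (adjusted p = 0.115, 0.0781 and 0.484).

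The rest of the family was described from lists of 5 prosurvival, 1 effector, 4 BH3-only and 6 related genes. Among the prosurvival genes, Bcl2l2 fell by 0.85 on CD and 0.79 on HFD on the log2 scale (adjusted p = 0.00362 and 0.015), and over 12 libraries the call on HFD was lost (adjusted p = 0.0732). Bcl2l10 was not called (log2 fold change of -0.90 on CD and -1.03 on HFD). The effector relative Bok gave -0.36 on CD and -0.01 on HFD, and was not called. None of the BH3-only genes Bad, Bik, Bmf and Hrk was called on either diet, with log2 fold changes on CD of 0.10, -0.54, 0.06 and -1.69.

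Among related genes, Bnip3, a mitophagy receptor induced by hypoxia, fell by 2.29 on CD (adjusted p = 0.000918) and by 1.80 on HFD (adjusted p = 0.0115). Bcl2l13, a mitochondrial family relative, fell by 1.10 on HFD (adjusted p = 0.0158), and on CD its log2 fold change was -0.31. Bcl2l13 lies opposite Bid on the other strand. Bcl2l14 and Bcl2l15 were also called lower on CD, but their WT CD levels came from the libraries with transcripts of other organs. Bcl2l14 reached 234 CPM in WT CD replicate 3 and 20.2 CPM in WT CD replicate 2, against 0.402 CPM in WT CD replicate 1, and Bcl2l15 reached 20.3 CPM in WT CD replicate 2 and at most 0.721 CPM in any other library.

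Downstream of the mitochondria, 3 of 8 apoptosome and caspase genes rose and 1 fell on CD, and 0 rose and 1 fell on HFD. The shares of all genes that rose and fell were 18.9% and 18.8% on CD, and 4.2% and 7.62% on HFD. On CD the risers were Apaf1, Casp9 and Dffa. Apaf1, the scaffold of the apoptosome, rose by 1.99 (adjusted p = 0.00128), Casp9 by 0.69 (adjusted p = 0.0346) and Dffa, an inhibitor of the caspase-activated DNase, by 0.85 (adjusted p = 0.0127). Cycs, encoding cytochrome c, fell by 1.09 on CD (adjusted p = 0.000928) and by 0.80 on HFD (adjusted p = 0.0139). Over 12 libraries the counts on CD were 3 higher and 0 lower, and on HFD 0 were called (Cycs, adjusted p = 0.17). Cycs stood at 114 CPM in WT CD replicate 3 and at 286 and 329 CPM in the other WT CD pools.

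Among 5 inhibitor of apoptosis genes and their antagonists, Htra2, encoding a mitochondrial serine protease, rose by 1.26 (adjusted p = 0.00428) and Birc2, encoding cIAP1, fell by 0.72 (adjusted p = 0.0162) on CD, and 0 were called on HFD. Xiap, Birc3 and Diablo were not called. For these counts too, the shares of all genes are those of the preceding paragraph. Of 3 channel genes Vdac2, whose product holds BAK at the outer membrane, rose by 0.60 on CD (adjusted p = 0.0454), with 0.61 on HFD (adjusted p = 0.0595), and Vdac1 and Vdac3 were not called. Over 12 libraries Vdac2 was not called on CD.

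Of 8 genes upstream of the family, 4 rose and 1 fell on CD, and 0 rose and 1 fell on HFD. Trp53, encoding p53, rose by 0.96 (adjusted p = 0.00175), E2f1 by 1.77 (adjusted p = 0.00173), Casp8 by 0.67 (adjusted p = 0.0234) and Foxo3 by 0.63 (adjusted p = 0.0339). Foxo1 fell by 1.41 on CD (adjusted p = 0.00736) and by 1.22 on HFD (adjusted p = 0.0301), with the call on HFD lost over 12 libraries (adjusted p = 0.0694). Over the 39 of these 40 further family and pathway genes that were tested, 11 rose and 7 fell on CD, and 1 rose and 5 fell on HFD. The 7 that fell on CD include Bcl2l14 and Bcl2l15, whose WT CD levels came from libraries with transcripts of other organs. Of all genes, 18.9% rose and 18.8% fell on CD, and 4.2% rose and 7.62% fell on HFD. Over 12 libraries 10 of these genes rose and 6 fell on CD, and 1 rose and 2 fell on HFD. Their median log2 fold change was 0.02 on CD and 0.06 on HFD, beside -0.06 and 0.06 for all genes.

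**Figure D5:**
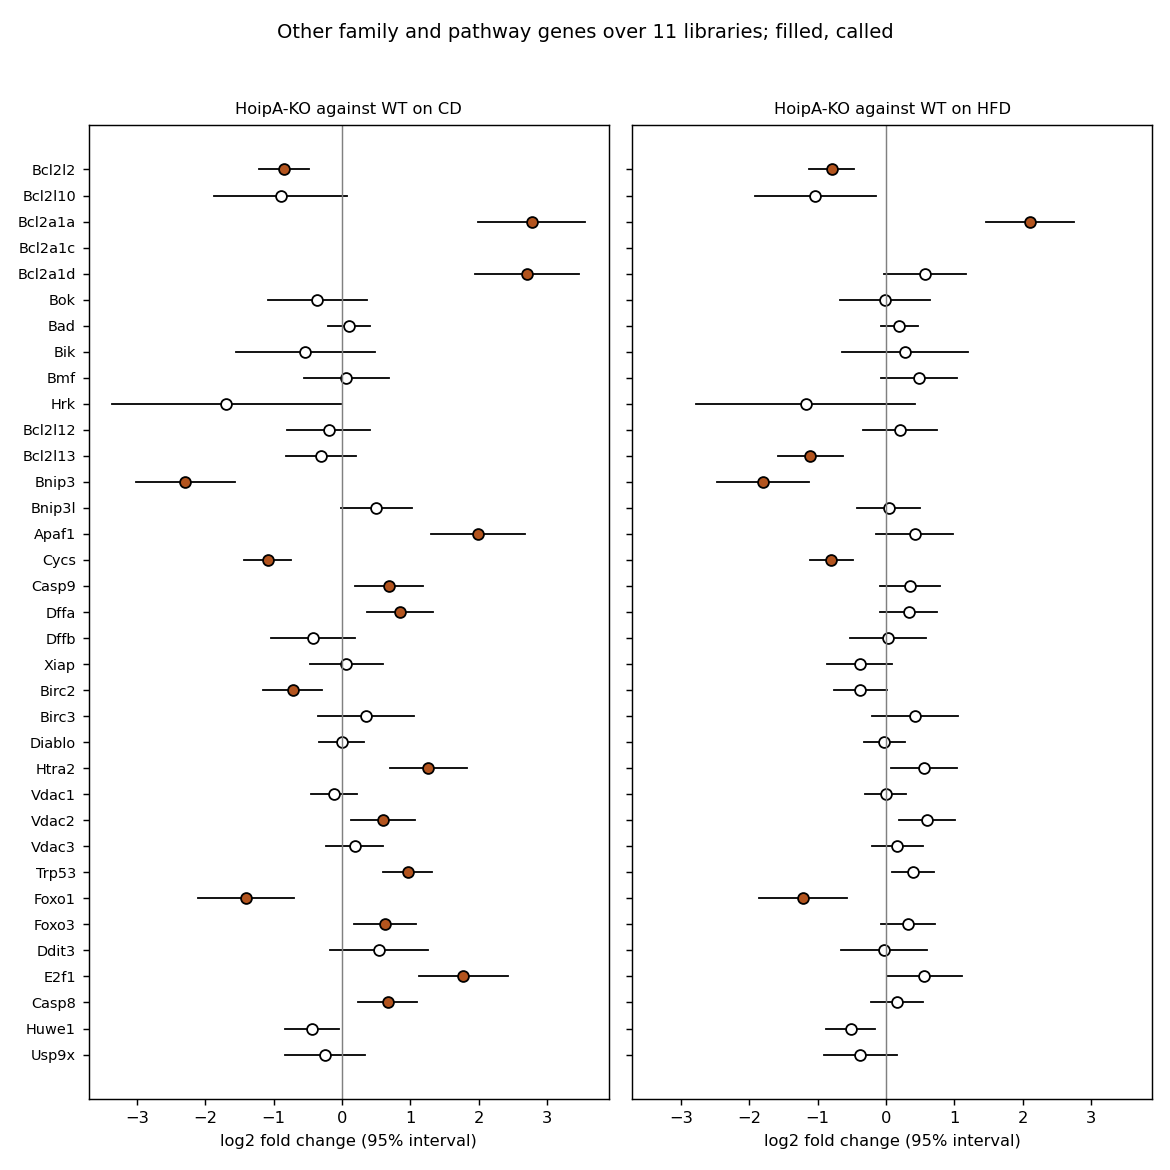
Log2 fold change (horizontal) with its 95% interval for most of the further family and pathway genes, HoipA-KO against WT on CD (left) and HFD (right) over 11 libraries, filled where called. Bcl2l14 and Bcl2l15 are not drawn because libraries with transcripts of other organs set their values, and Bcl2a1c has no value because it was not tested. Bnip3 lies at -2.29 on CD and Bcl2a1a at 2.77.

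Promoters of the members were searched for forkhead, p53 and NF-kB motifs, on both strands and in RefSeq promoters of GRCm38.p6 that run from 250 bases before to 50 after the start. The motifs were chosen after the levels were seen. Of the 10 members, 9 had a promoter entry. The forkhead motif TGTTTAC occurred in promoters of Bcl2l11 and Bbc3 and in 3.65% of all 32851 promoters (4.05% of 27025 genes). The p53 decamer motif occurred in that of Bax and in 8.36% of promoters (9.55% of genes), and the NF-kB motif in those of Bbc3 and Bcl2l1 and in 8.46% (9.55% of genes). The windows are shown on the strand of the gene with the motif in capitals, for the pair of BH3-only genes that share a motif but not a call, and for Bax.

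Bcl2l11, chr2:128125796-128125832, plus strand: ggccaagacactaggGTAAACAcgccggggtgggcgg
Bbc3, chr7:16310079-16310115, plus strand: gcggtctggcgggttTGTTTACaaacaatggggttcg
Bax, chr7:45467075-45467114, minus strand: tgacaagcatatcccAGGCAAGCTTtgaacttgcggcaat

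The forkhead motif thus stood in a promoter of Bcl2l11, which rose on CD, and in one of Bbc3, which was not called. A match of letters is a description and does not show that a factor binds there.

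The genes whose pattern over the 12 libraries was most like that of each called member were taken from 10266 genes with a mean of at least 10 CPM, by Pearson's r of log2(CPM + 1). The r values are descriptions over libraries that share a few groups. For Bcl2a1b they were AB124611 (r = 0.996) and Ces2g (0.994), for Bak1 Ctsz (0.997) and Ctsa (0.996), which encode lysosomal proteases, and for Bax Twf2 (0.995) and Shkbp1 (0.989). For Mcl1 they were Anxa1 (0.989) and Gltp (0.989), for Bcl2l11 Fgd3 (0.984) and Stard3 (0.983), and for Pmaip1 Orai2 (0.962) and Gxylt2 (0.958). For Bcl2l1 they were Mnt (0.952) and Wdr46 (0.947). For Bcl2 they were Pdha1 (0.964), a subunit of pyruvate dehydrogenase, and Thap12 (0.960).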

How the data were processed

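The authors trimmed reads with Trim Galore 0.6.7, aligned them with STAR 2.7.10a and deposited estimated counts per gene from Salmon 1.5.2 for 12 stranded polyA libraries; the strand setting of the counting and the annotation release are not given in the sources used here. Their processing notes name GRCm38. The authors' comparison tables hold fold changes and p-values of their own and were not used. Estimated counts were rounded; genes passing filterByExpr entered 1 model of the 4 groups with TMM normalization, fitted with edgeR 4.0.16 (quasi-likelihood test, prior count 0.125, Benjamini-Hochberg threshold 0.05, R 4.3.3) over 11 libraries. Nothing in the labels ties pools to each other, and p-values measure the spread between pools. Between the HoipA-KO groups, all 3 pairs of pools with the same number had correlated deviations (0.137 to 0.499), and with the number as a block 0 genes were called there, as without it. Genes on the same or the other strand overlap Bcl2, Bcl2a1b, Bax, Bak1 and Bid, and their reads may be shared. The test was checked on simulated counts. Alternatives were another scaling, filter, threshold, tool, gene table or set of libraries, a replicate block, and each library left out in turn. Members, lists and tests were chosen with earlier results of these data known. All 10 members are named; other family and pathway genes are named where called in HoipA-KO against WT, or where a list has at most 5 genes; marker lists are given as counts with examples, and these and the genes marking other organs were named after their values were seen. Some listed genes are not reported here.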

Additional observations from a re-analysis of the deposited data

Results flagged for a closer look

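The test of the difference between diets drew attention to 2 genes. For Bcl2a1b the HoipA-KO difference was smaller on HFD than on CD by 2.95 on the log2 scale (interaction -2.95), with WT pools at 1.89 to 3.31 CPM on CD and 9.71 to 33.1 CPM on HFD. For its near-identical copy Bcl2a1d the interaction was -2.14 (edgeR, adjusted p = 0.0289), and reads cannot be fully divided between the copies, so these are not independent results. HoipA-KO pools differed little between diets for both genes, and the macrophage marker Lyz2 had an interaction of -3.21 in the same fit (adjusted p = 0.0293). The part of macrophage content in these values was not tested.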

How the results depend on the processing

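In both genotype comparisons, the diet comparison in WT and the Bcl2a1b interaction, 606 values of single members kept their direction and side of the threshold, 63 lost a call, 22 gained one and 25 changed sign. For HFD against CD in HoipA-KO and the other interactions, 393 kept both, 8 gained a call (interactions of Mcl1, Bak1 and Pmaip1) and 28 changed sign. On CD the 8 members called became 5 with WT CD replicates 1 and 3 as the WT CD group, and 7 to 9 when 1 library was left out (all genes called, 37.7% to 36% and 27.7% to 38.8%). On HFD the 3 called became 5 with library size alone, 6 with DESeq2's Wald test, 1 with no filter, with all 12 libraries or with either other pair of WT CD replicates, 0 at an adjusted p of 0.01, and 0 to 5 when 1 library was left out. The share of all genes called moved as well, from 11.8% to 13.1%, 23.9%, 5% (no filter), 2.78% (12 libraries), 6.69% or 3.62% (the other pairs), 1%, and 1.53% to 19.9%. For HFD against CD in WT the 3 became 0 with only the groups compared, 1 at an adjusted p of 0.01, and 1 to 4 when 1 library was left out, while all genes called went from 14.8% to 0%, 3.58%, and 5.52% to 29.7%. For the interaction the 1 became 2 with library size alone, 3 with WT CD replicates 2 and 3, 4 with DESeq2's Wald test, 0 at an adjusted p of 0.01, and 0 to 3 when 1 library was left out, while all genes called went from 3.91% to 4.43%, 18.3%, 12.8%, 0.0109%, and 0.00524% to 18.2%. The cause was not tested. Leaving out a WT CD library leaves 1, which is assumed to vary like the others.

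Sign changes concerned values not called in either fit, among them 5 members for HFD against CD in HoipA-KO and the interactions of Bcl2, Bcl2l1, Bid and Bbc3, where the new values ran from -0.81 to 0.30 (Bcl2 -0.53 with WT CD replicates 2 and 3). On CD they were Bid with protein-coding genes (-0.0423), and when 1 library was left out Bid (-0.36 to 0.70) and Bbc3 (-0.28 to 1.23). On HFD they were Bbc3 with protein-coding genes (-0.0105) and when 1 library was left out (-0.10 to 0.12). For HFD against CD in WT they were Bcl2 with 12 libraries (0.00793) or WT CD replicates 2 and 3 (0.38), Bid in the same settings (0.0602 and 0.66), Bcl2l1 with 12 libraries (-0.0350), replicates 2 and 3 (-0.12) or 1 and 3 (-0.18), and Bbc3 with replicates 1 and 3 (-0.0522). When 1 library was left out, Bcl2 ran from -0.49 to 0.0849, Bid from -0.65 to 0.44 and Bbc3 from -0.47 to 1.06.

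With a replicate block, 8 members were called on CD, 3 on HFD, 2 for HFD against CD in WT (Bak1 lost, adjusted p = 0.0671), 0 in HoipA-KO and 0 for the interaction (Bcl2a1b, adjusted p = 0.0532), Bbc3 on HFD was -0.0131, and genes called for HFD against CD in WT went from 2731 to 1502. All genes called with the block came to 32% on CD, 13.9% on HFD, 8.15% for HFD against CD in WT, 0% in HoipA-KO and 2.05% for the interaction. Of 15 pairings of pools within a number, 6 had a correlation of deviations over 0.1 and the lowest was -0.37, so the numbers did not pair the pools across the 4 groups.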

Other observations

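Markers of other cells were counted in HoipA-KO against WT. Of all genes, 18.9% rose and 18.8% fell on CD, and 4.2% rose and 7.62% fell on HFD. Over 12 libraries the shares were 15.6% and 19.1% on CD, and 0.531% and 2.25% on HFD. Of 4 proliferation markers, 4 rose in HoipA-KO on CD over 11 libraries and 1 over 12. Mki67 stood at 7.92, 8.64 and 29.2 CPM in WT CD and at 66.3, 130 and 70.2 CPM in HoipA-KO CD. Of 5 mast cell markers 4 rose on CD and 1 on HFD (4 and 0 over 12 libraries). Tpsb2 reached the highest level of them (243 CPM in a HoipA-KO HFD pool), but in WT CD Kit averaged 20.8 CPM and Tpsb2 1.89 CPM. Of 5 endothelial markers 3 fell on each diet over 11 libraries, and 1 on CD and 0 on HFD over 12. T cell markers had 1 of 6 higher on each diet (0 on HFD over 12 libraries), B cell markers 0 of 4, mesothelial markers 0 of 3, and progenitor markers 2 of 5 higher on CD and 0 on HFD. Neutrophil markers had 1 of 5 tested higher on each diet.

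Diablo, which encodes a mitochondrial antagonist of inhibitor of apoptosis proteins, stood at 178 CPM in WT CD replicate 3 and between 35.1 and 45.8 CPM in the other 11 libraries. That library had the highest level of protamine transcripts.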
